A study of Mus musculus with 6 samples.

Results

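The genes described here are the matrix metalloproteinases (MMPs), the ADAMTS proteinases, the ADAMTS-like (ADAMTSL) glycoproteins and the tissue inhibitors of metalloproteinases (TIMPs). They were taken by symbol, and 47 of the 17512 genes in the count table belonged to them: 20 MMP, 18 ADAMTS, 5 ADAMTSL and 4 TIMP genes. The annotation lists 51 such genes, and Adamts19, Mmp1a, Mmp7 and Mmp20 were not analysed here. RNA-seq of total RNA was carried out on primary mouse embryonic fibroblasts (MEFs), cells grown in serum-containing medium from C57bl6 embryos whose internal organs had been removed. The comparison was between 3 HAT1 WT lines (36, 47 and 78) and 3 HAT1 KO lines (33, 41 and 72, HAT1 -/-), without any treatment. HAT1 acetylates newly made histone H4. The study used this RNA-seq to ask whether chromatin that is less accessible without HAT1 is so because transcription was lost. Each line was 1 replicate, and because the labels do not say how the embryos were related, p-values measure only the spread between these lines.

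MMPs and ADAMTS proteinases are zinc enzymes that cut proteins of the extracellular matrix and of the cell surface. MMPs are made as inactive precursors, and removal of the propeptide by furin-like enzymes, by plasmin or by other MMPs gives the active form. ADAMTS proteinases carry thrombospondin repeats that hold them in the matrix; they include enzymes that cut aggrecan and versican and enzymes that remove the amino-terminal propeptide of fibrillar procollagens. ADAMTSL proteins share the repeats, lack the catalytic domain, and several bind fibrillin microfibrils. TIMPs bind the active site of these proteinases, and TIMP2 also takes part in activating pro-MMP2 at the cell surface together with MT1-MMP (Mmp14). Fibroblasts are a main source of all of these proteins in connective tissue, and several MMP genes are well known as targets of the transcription factor AP-1.

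Libraries held from 67720628 to 98786746 counts, and levels are given as CPM, counts scaled to the TMM-corrected size of the library. Hat1 was 17.4, 23.0 and 20.1 CPM in WT lines 36, 47 and 78 and 10.2, 10.0 and 10.3 CPM in KO lines 33, 41 and 72, and it fell by 0.99 on the log2 scale (SE 0.12, adjusted p = 0.0376); the adjusted p was above 0.05 when any 1 line was left out. Fibroblast markers summed to between 41850 CPM (KO line 72) and 75260 CPM (KO line 33). Macrophage markers differed with genotype: all 12 were lower in HAT1 KO past 1.5-fold at an unadjusted p under 0.05, and their sum was 5134 to 5611 CPM in HAT1 WT and 2500 to 3099 CPM in HAT1 KO, with none at 0. At the same thresholds, 4 of 6 proliferation markers were higher in HAT1 KO (sums of 274.8 to 433.6 CPM in HAT1 WT and 398.4 to 638.2 CPM in HAT1 KO), and 2 of 4 tested endothelial markers were lower (sums of 11.4 to 12.6 and 8.92 to 12.4 CPM). In bulk RNA, fewer cells of a type and less RNA per cell cannot be told apart. Y-linked transcripts summed to 182.8 and 159.5 CPM in WT lines 36 and 47 and to 2.33 CPM or less in the other 4 lines, so sex was not balanced between the genotypes. The part of these differences in the values below was not tested, beyond a fit with Y-linked CPM as a covariate. In that fit the genotype term rested largely on WT line 78, the WT line without high Y-linked CPM. Sex and that line cannot be told apart there.

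In HAT1 WT cells 3 of the 4 inhibitors and 2 collagen- and gelatin-cleaving enzymes were the leading members. Levels are compared between genes only as CPM per kb of merged exons. Timp2 came first, at 445 ± 45.5 CPM per kb (SD, n = 3, as for all means below), and its lowest line, at 412.4, was above the highest line of any other member. Timp1 followed at 212 ± 26.1, Timp3 at 183 ± 41.7, Mmp2 at 182 ± 27.6 and Mmp14 at 157 ± 12.7 CPM per kb, and neighbours in this order overlapped between lines. Adamts1, at 50.5 ± 13.9 CPM per kb, stood below all of them in every WT line. Mmp11 (30.1 ± 5.20), Adamts5 (23.9 ± 8.16), Adamts2 (21.2 ± 5.43), Mmp23 (17.4 ± 0.613), Mmp19 (17.1 ± 2.91) and Mmp3 (15.0 ± 6.55 CPM per kb) came next, and each overlapped its neighbour in the order. Dividing by the longest transcript in place of the merged exons left Timp2 first, moved Timp3 and Mmp14 above Timp1, and put Adamtsl1 (16.2 CPM per kb) above Mmp3 (15.0). Mmp13, at 2.82 CPM per kb in HAT1 WT, ranked 27 of the 47.

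The summed level of each of the 4 classes overlapped between the genotypes. TIMPs summed to 3414 ± 281.1 CPM in HAT1 WT and 3211 ± 318.0 CPM in HAT1 KO, and MMPs to 1843 ± 178.7 and 1847 ± 239.5 CPM. The 18 ADAMTS genes summed to 1016 ± 251.9 CPM in HAT1 WT and 1126 ± 226.3 CPM in HAT1 KO. ADAMTSL genes summed to 215.7 ± 17.8 and 257.6 ± 89.0 CPM, where KO line 72 held 357.9 CPM and the other 5 lines 187.9 to 236.1 CPM.

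Of the 47 members, 43 had enough counts to be tested: 17 MMP, 17 ADAMTS, 5 ADAMTSL and 4 TIMP genes. By edgeR's quasi-likelihood test, with Benjamini-Hochberg adjustment over all 14773 genes tested, 0 members passed an adjusted p of 0.05. That threshold was passed by 0.528% of all genes. In the same test 4 members were under an unadjusted p of 0.05. DESeq2 called 1 member, Mmp23, at the adjusted threshold, and the share of all genes that DESeq2 called is not given here. At the thresholds of the study, an unadjusted p under 0.05 and a change of at least 1.5-fold, 1 member fell (Adamtsl2, against 4.62% of all genes) and 1 rose (Adamts3, against 1.5%). Without the fold limit, 1 member was lower, against 8.77% of all genes, and 3 were higher (Adamts3, Adamtsl5 and Mmp23), against 5.88%. Among the tested members, these were also the ones whose lines did not overlap between genotypes, 1 with HAT1 KO below (12.4% of all genes) and 3 with HAT1 KO above (9.59%). The shares of members called lay near or below these backgrounds in the lower direction and near them in the higher direction.

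The changes of the members were spread more widely than those of the whole table, without a common direction. The median log2 fold change was 0.16 over the 43 members and 0.01 over all genes tested, and by class it was 0.16 for MMPs, 0.16 for ADAMTS, 0.39 for ADAMTSL and 0.15 for TIMPs. A fitted change of 1.5-fold or more in either direction was seen in 12 of the 43 members (27.9%), against 14.1% of all genes, and 25 of the 43 had a log2 fold change above 0 (58.1%, against 51.5% of all genes). Their median standard error was 0.33 on the log2 scale, against 0.14 over all genes. The line that most often stood apart from the others was KO line 72.

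**Figure D1:**
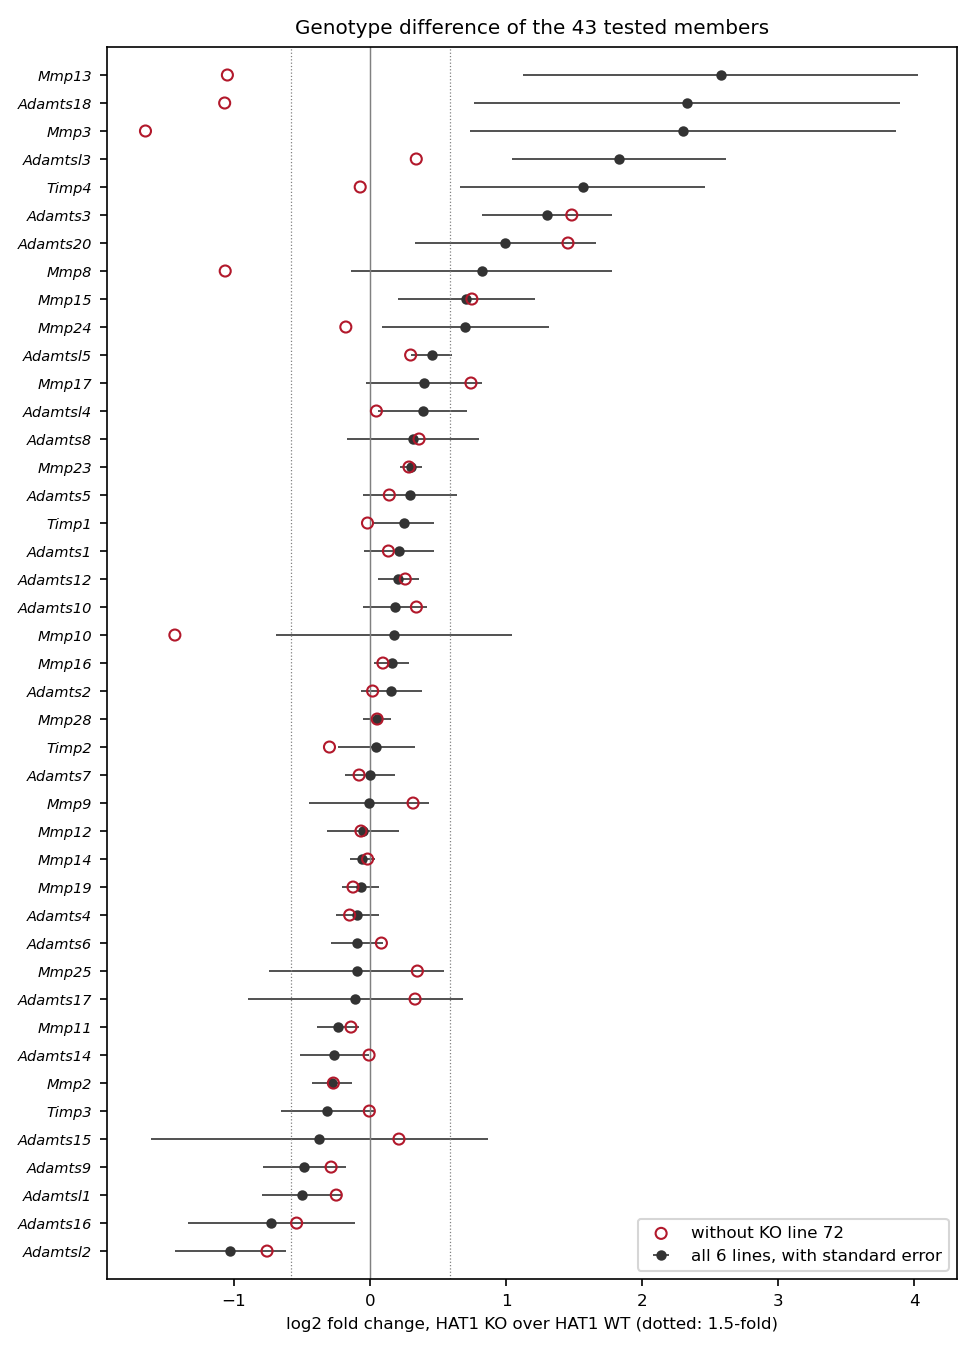
Log2 fold change (HAT1 KO over HAT1 WT) of the 43 tested members with all 6 lines (filled points, bars of 1 standard error on either side) and without KO line 72 (open circles); dotted lines mark a 1.5-fold change. Without KO line 72, Mmp13, Adamts18 and Mmp3 move from 2.58, 2.33 and 2.30 to -1.05, -1.07 and -1.65, while the circle of Mmp23 stays on its filled point.

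The 4 genes under an unadjusted p of 0.05 differed in role and in size of change. Adamtsl2 (chr2:27079379-27108981) codes for a glycoprotein that binds fibrillin and latent TGF-β binding protein. It was 2.73, 2.76 and 3.61 CPM in WT lines 36, 47 and 78 and 2.45, 1.09 and 0.907 CPM in KO lines 33, 41 and 72. All 3 KO lines were below all 3 WT lines, although KO line 33 was close to WT line 36. Adamtsl2 fell by 1.03 on the log2 scale (SE 0.41, unadjusted p = 0.0438, adjusted p = 0.328). Its unadjusted p was above 0.05 when any line but KO line 33 was left out, with a log2 fold change of -0.76 (unadjusted p = 0.0943) without KO line 72. It was also above 0.05 with lane (0.117) or Y-linked CPM (0.0746) in the model. Lane 8 held WT line 36 alone, so with lane in the model that line gave nothing to the genotype term.

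Adamts3 (chr5:89677087-89883334) codes for a procollagen N-proteinase that also takes part in the processing of the lymphatic growth factor VEGFC. Its level was 1.09, 1.24 and 1.05 CPM in the WT lines and 1.39, 4.88 and 2.05 CPM in KO lines 33, 41 and 72. KO line 41 was more than 2-fold above every other line, and KO line 33 was only just above WT line 47. The fitted log2 fold change was 1.30 (SE 0.48, unadjusted p = 0.0334, adjusted p = 0.302). Without KO line 41 it was 0.61 with an unadjusted p of 0.0762, and the unadjusted p was also above 0.05 when any 1 WT line was left out, with lane (0.0945) or Y-linked CPM (0.144) in the model, and with voom (0.0574).

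Adamtsl5 (chr10:80339110-80348412), which codes for a secreted ADAMTS-like protein, was 35.9, 34.6 and 29.7 CPM in the WT lines and 41.6, 39.7 and 55.8 CPM in KO lines 33, 41 and 72. Its KO lines were all above its WT lines, KO line 72 most of all. The log2 fold change was 0.45 (SE 0.15, unadjusted p = 0.0228, adjusted p = 0.264), and without KO line 72 it was 0.30 (unadjusted p = 0.0251); without WT line 78 the unadjusted p was 0.0639. Mmp23 (chr4:155650655-155653384) codes for a membrane-anchored MMP whose precursor is released from the membrane by cleavage. It was 41.8, 41.4 and 39.1 CPM in the WT lines and 53.2, 45.3 and 52.0 CPM in the KO lines. The lines of each genotype lay close together and did not overlap, and the fitted change was 1.23-fold (log2 0.30, SE 0.08, unadjusted p = 0.00935, adjusted p = 0.194). Mmp23 was the only member under an unadjusted p of 0.05 in every alternative analysis run, with p between 0.00275 and 0.0335.

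Of the inhibitors, Timp1 and Timp2 were highest in KO line 72, where Timp3 was lowest. Timp2 (chr11:118301069-118355740) was 1935, 1657 and 1607 CPM in WT lines 36, 47 and 78 and 1153, 1642 and 2569 CPM in KO lines 33, 41 and 72. The KO lines thus lay on both sides of the WT lines, and the log2 fold change was 0.05 (SE 0.28, adjusted p = 0.958). Timp3 (chr10:86300372-86349506), the inhibitor that binds to the matrix and also blocks several ADAMTS enzymes, was 1325, 1270 and 1884 CPM in the WT lines and 1534, 1416 and 648.1 CPM in the KO lines. KO lines 33 and 41 lay within the WT range and KO line 72 below it (log2 fold change -0.32, SE 0.34, unadjusted p = 0.388). Timp1 (chrX:20870166-20874735) was 214, 181 and 169 CPM in the WT lines and 198, 170 and 302 CPM in the KO lines, with a log2 fold change of 0.25 (SE 0.22, unadjusted p = 0.309). Without KO line 72 the log2 fold change was -0.30 for Timp2 and -0.02 for Timp1. Within a line, the ratio of Timp3 to Timp2 CPM was 0.685, 0.766 and 1.17 in the WT lines, 1.33 and 0.862 in KO lines 33 and 41, and 0.252 in KO line 72. Timp4 was near the limit of detection, with 8 to 15 counts in 5 lines and 80 counts (1.04 CPM) in KO line 72; its log2 fold change was 1.56 (SE 0.90, unadjusted p = 0.131), and -0.07 without that line.

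**Figure D2:**
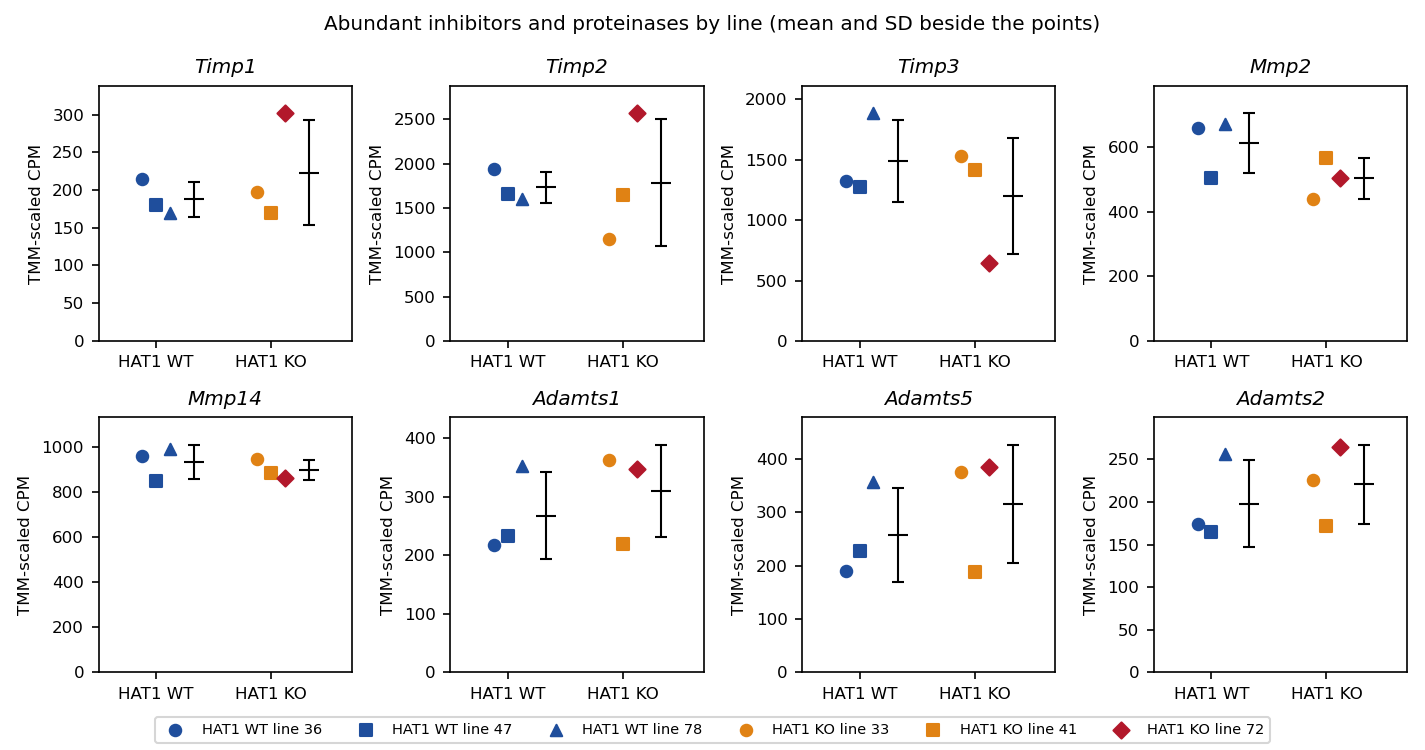
TMM-scaled CPM (linear axis from 0) of 3 inhibitors and 5 proteinases in the 3 HAT1 WT and 3 HAT1 KO lines, each point 1 line, with the mean and SD of each genotype beside the points. Timp2 was highest and Timp3 lowest in KO line 72, at 2569 and 648.1 CPM, while Mmp14 lay between 850 and 993 CPM in all 6 lines.

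The most abundant membrane-bound and gelatin-cleaving enzymes, Mmp14 and Mmp2, varied less between lines. Mmp14 (chr14:54431612-54445364), or MT1-MMP, the collagenase at the fibroblast surface, was 963, 850 and 993 CPM in the WT lines and 946, 884 and 865 CPM in the KO lines. The genotypes overlapped, with a log2 fold change of -0.06 (SE 0.09, unadjusted p = 0.543). Mmp2 (chr8:92827291-92853420), gelatinase A, was 661, 506 and 672 CPM in the WT lines and 440, 568 and 505 CPM in the KO lines. WT line 47 lay among the KO lines, and the log2 fold change was -0.28 (SE 0.15, unadjusted p = 0.103). Without WT line 47 it was -0.40 with an unadjusted p of 0.0269. Mmp9, gelatinase B, was 8.58 to 25.4 CPM over the 6 lines, with the lowest value in KO line 72 and the highest in WT line 78 (log2 fold change -0.01, SE 0.44).

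The other membrane-bound MMPs stood at lower levels. Mmp17, which has a lipid anchor, was highest in KO line 33 (51.2 CPM) and lowest in KO line 72 (15.3 CPM), and the WT lines lay between them at 19.9 to 30.1 CPM. Mmp15 was 3.08 to 3.68 CPM in the WT lines, 9.08 and 5.26 CPM in KO lines 33 and 72 and 1.98 CPM in KO line 41. Mmp16 lay between 9.17 and 12.7 CPM, and Mmp24 and Mmp25 were under 1 CPM in every line. Of the secreted enzymes, Mmp11 (stromelysin-3, activated by furin inside the cell) was 97.3, 68.6 and 85.1 CPM in the WT lines and 81.2, 69.2 and 62.6 CPM in the KO lines. Mmp19 was 54.9, 54.1 and 72.3 CPM in the WT lines and 53.2, 56.7 and 62.8 CPM in the KO lines. The genotypes overlapped in both, with log2 fold changes of -0.24 (SE 0.15) for Mmp11 and -0.07 (SE 0.13) for Mmp19. Mmp28, or epilysin, lay between 12.4 and 14.8 CPM in all 6 lines.

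The collagenase and stromelysin genes lie in a cluster on chromosome 9, described here from Mmp13 to Mmp27, the outermost of its genes in the table (chr9:7272514-7581885, GRCm38). MMP genes without a row that may lie past these ends were not looked for. All 8 annotated genes in these 309 kb belong to the MMP family, and 7 of them were in the table. In the order along the chromosome these are Mmp13 (collagenase-3), Mmp12 (macrophage elastase), Mmp1b, Mmp3 (stromelysin-1), Mmp10 (stromelysin-2), Mmp8 (neutrophil collagenase) and Mmp27. Promoters are shown for the 5 of these genes that were highest in the same line, Mmp13, Mmp3, Mmp10, Mmp8 and Mmp1b, and for Mmp12, which was not. The sequences are the 250 bases upstream of RefSeq transcript starts (GRCm38.p6, plus strand except Mmp1b, which is on the minus strand and is written in its own direction), for Mmp13 at chr9:7272264-7272513, Mmp3 at chr9:7445572-7445821, Mmp10 at chr9:7502092-7502341, Mmp8 at chr9:7558179-7558428, Mmp1b at chr9:7388027-7388276, and both Mmp12 starts at chr9:7344147-7344396 (Mmp12 start 1) and chr9:7347124-7347373 (Mmp12 start 2). Capitals mark the AP-1 heptamer TGAGTCA or its reverse complement TGACTCA, and the TATA box TATAAA on the sense strand.
Mmp13: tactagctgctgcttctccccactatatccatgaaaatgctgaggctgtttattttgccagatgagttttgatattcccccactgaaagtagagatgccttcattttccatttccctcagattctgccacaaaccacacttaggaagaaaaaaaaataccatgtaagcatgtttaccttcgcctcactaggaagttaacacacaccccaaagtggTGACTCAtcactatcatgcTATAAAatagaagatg
Mmp3: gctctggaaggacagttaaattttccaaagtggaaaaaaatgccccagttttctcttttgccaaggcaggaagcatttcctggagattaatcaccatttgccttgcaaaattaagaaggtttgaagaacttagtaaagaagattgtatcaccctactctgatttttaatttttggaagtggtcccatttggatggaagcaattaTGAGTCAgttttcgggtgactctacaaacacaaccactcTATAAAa
Mmp10: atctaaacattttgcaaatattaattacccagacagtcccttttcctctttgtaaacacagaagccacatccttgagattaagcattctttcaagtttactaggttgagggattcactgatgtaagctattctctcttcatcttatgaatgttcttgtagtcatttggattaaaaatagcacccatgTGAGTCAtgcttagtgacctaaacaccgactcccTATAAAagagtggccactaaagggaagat
Mmp8: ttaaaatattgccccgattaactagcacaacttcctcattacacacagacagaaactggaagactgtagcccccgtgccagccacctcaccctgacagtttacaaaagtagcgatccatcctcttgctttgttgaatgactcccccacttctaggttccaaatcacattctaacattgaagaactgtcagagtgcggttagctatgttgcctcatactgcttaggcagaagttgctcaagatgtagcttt
Mmp1b: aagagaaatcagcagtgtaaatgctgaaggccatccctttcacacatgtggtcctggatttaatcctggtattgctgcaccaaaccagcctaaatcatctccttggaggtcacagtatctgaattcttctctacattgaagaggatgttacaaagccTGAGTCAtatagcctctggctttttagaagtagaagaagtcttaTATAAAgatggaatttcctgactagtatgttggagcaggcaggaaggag
Mmp12 start 1: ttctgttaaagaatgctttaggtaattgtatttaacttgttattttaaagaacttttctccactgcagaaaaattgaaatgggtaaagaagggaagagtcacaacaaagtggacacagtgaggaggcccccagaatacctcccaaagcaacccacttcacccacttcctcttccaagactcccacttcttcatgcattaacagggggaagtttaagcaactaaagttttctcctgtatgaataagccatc
Mmp12 start 2: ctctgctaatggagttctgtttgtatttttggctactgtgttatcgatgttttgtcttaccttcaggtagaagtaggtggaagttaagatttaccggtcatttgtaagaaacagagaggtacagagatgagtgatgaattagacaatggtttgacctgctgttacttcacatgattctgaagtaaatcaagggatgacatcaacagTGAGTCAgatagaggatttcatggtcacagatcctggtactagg

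RefSeq windows were found for 33 of the 47 members, 35 windows in all. The AP-1 heptamer was in 5 of them (14.3%), against 4.46% of 32851 windows over all genes, and the 5 were those of Mmp3, Mmp10, Mmp12, Mmp13 and Mmp1b, all in the chromosome 9 cluster. Of the Mmp12 windows only start 2 held it, and start 1, near the annotated start of the gene, did not. TATAAA was in 7 of the 35 windows, against 7.59% of all windows, and those of Mmp3, Mmp10, Mmp13 and Mmp1b held both motifs. The heptamer ended 29 bases before the start in Mmp13, 40 in Mmp3 and 57 in Mmp10. The Mmp8 window held neither motif. The element AGGAAG (or CTTCCT), read on both strands, was in 12 of the member windows (34.3%), against 29.5% of all windows. A match describes the letters in the window and is not evidence of binding.

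In Mmp3 and Mmp13 of the cluster, KO line 72 was far above the other lines while KO lines 33 and 41 were below the WT lines. Mmp3 (chr9:7445822-7455975) was 20.5, 40.7 and 20.04 CPM in WT lines 36, 47 and 78, 3.26 and 14.0 CPM in KO lines 33 and 41, and 382 CPM in KO line 72, where it had 29460 counts. That was 19.1 times the median of the other 5 lines, and KO line 33 lay 4.29-fold under the next lowest line. The log2 fold change with all lines was 2.30 (SE 1.56, unadjusted p = 0.191), and without KO line 72 it was -1.65 (SE 0.66, unadjusted p = 0.0483, adjusted p = 0.265). The direction of Mmp3 thus rested on 1 library.

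Mmp13 (chr9:7272514-7283331) showed the same order. It was 8.99, 8.40 and 5.24 CPM in the WT lines, 2.13 and 5.12 CPM in KO lines 33 and 41 and 128 CPM in KO line 72, 24.4 times the median of the others. The log2 fold change was 2.58 (SE 1.45, unadjusted p = 0.124), and -1.05 (unadjusted p = 0.0502) without KO line 72. Without KO line 33 it was 3.14 with an unadjusted p of 0.0388.

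Mmp10 (chr9:7502352-7510240) was lower throughout, at 0.822, 1.58 and 0.859 CPM in the WT lines, 0.270 and 0.533 CPM in KO lines 33 and 41 and 2.88 CPM in KO line 72. Its log2 fold change was 0.18 (SE 0.87, unadjusted p = 0.846), and -1.44 (unadjusted p = 0.0274) without KO line 72. The counts of Mmp8 were 10, 12 and 28 in HAT1 WT, 8 and 6 in KO lines 33 and 41 and 64 in KO line 72. Those of Mmp1b were 4, 2 and 0 in HAT1 WT, 0 in both KO lines 33 and 41 and 38 in KO line 72, too few for the test. Mmp1b shares 157 exon bases with Mmp12 on the opposite strand, and whether it shares reads with Mmp1a was not examined. In all 5 genes KO line 72 was the highest line. In Mmp3, Mmp8, Mmp10 and Mmp13 both other KO lines were below every WT line. The gap was small in Mmp13 (5.12 CPM in KO line 41 against 5.24 CPM in WT line 78). In Mmp8 it rested on few counts (8 and 6 against 10 in WT line 36). The share of all genes with KO lines 33 and 41 below every WT line is not given here, so this order has no background beside it.

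Mmp12 and Mmp27, in the same 309 kb, did not share this order. Mmp12 (chr9:7344381-7369499) was 4.83, 7.23 and 3.83 CPM in the WT lines and 4.23, 5.80 and 5.26 CPM in the KO lines, with a log2 fold change of -0.05 (SE 0.27, adjusted p = 0.943). Its product is the macrophage elastase. The lines of Mmp12 overlapped between genotypes, and the 12 macrophage markers were lower in HAT1 KO. The part of the macrophage markers in the Mmp12 values was not tested. Mmp27 had at most 9 counts in any line. Outside these 309 kb, the 10 tested genes that lay within 1 Mb on either side were 0.624 to 2.04 times the median of the other lines in KO line 72. The nearest of them, Dcun1d5, lay between 25.7 and 30.3 CPM in all 6 lines.

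**Figure D3:**
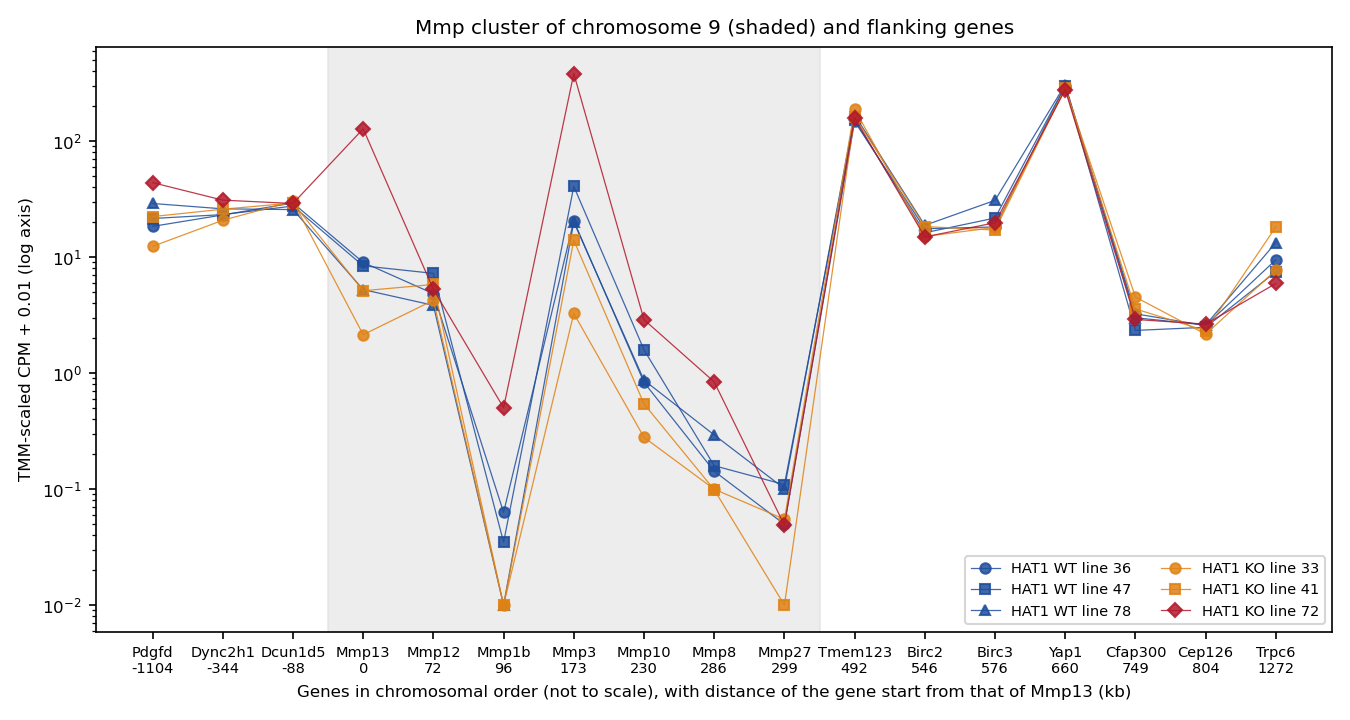
TMM-scaled CPM + 0.01 (log axis) of the 7 chromosome 9 MMP genes in the table (shaded). Beside them are the 10 tested genes that lie within 1 Mb on either side of the shaded span. Genes are in chromosomal order and each marker is 1 line. The numbers under the names are the distance of each gene start from that of Mmp13 in kb. KO line 72 is far above the other lines at Mmp13 (128 CPM) and Mmp3 (382 CPM), but not at Mmp12. Among the flanking genes the lines are most spread at Pdgfd (12.4 to 43.8 CPM, KO line 72 highest) and Trpc6 (5.91 to 18.2 CPM, KO line 72 lowest).

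KO line 72 stood apart in members outside the cluster too, and the counts here include the cluster. It was more than 3 times the next line in 5 of the 43 tested members (11.6%), against 0.975% of all genes. These were Mmp3 and Mmp13 of the cluster, and Adamts18, Adamtsl3 and Timp4 outside it. It was at least 2-fold above the median of the other 5 lines in 9 members (20.9%), against 5.12% of all genes. Mmp3, Mmp8, Mmp10 and Mmp13 of the cluster were among those 9. KO line 72 was at least 2-fold below that median in 8 members (18.6%), against 8.52%. For each of the other 5 lines, 1 to 4 members (2.33% to 9.3%) lay 2-fold above the median of the rest, against 1.9% to 3.82% of all genes. From 0 to 4 members (0% to 9.3%) lay 2-fold below it, against 1.61% to 4.62%. The share of members was thus above that of all genes in other lines too, as in KO line 33 (9.3% against 2.99% above, 9.3% against 4.22% below). The exceptions were WT line 36 above and WT line 47 below. Any line stood apart by 3-fold, above or below, in 6 members, against 2.88% of all genes. The summed fibroblast markers were lowest in this line, and the part of that difference in the member values was not tested.

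Adamtsl3 (chr7:82335694-82614450), a matrix glycoprotein also called punctin-2, was 23.1, 20.7 and 26.3 CPM in the WT lines, 35.5 and 23.1 CPM in KO lines 33 and 41 and 190.5 CPM in KO line 72. The genotypes overlapped only through KO line 41. The log2 fold change was 1.83 (SE 0.79, unadjusted p = 0.0576), and 0.34 (unadjusted p = 0.144) without KO line 72. The counts of Adamts18 (chr8:113697126-113848738) were 20, 31 and 2 in HAT1 WT, 8 in both KO lines 33 and 41 and 242 in KO line 72 (3.14 CPM, log2 fold change 2.33, SE 1.57, unadjusted p = 0.186). Without KO line 72 its log2 fold change was -1.07. In Adamts15 (chr9:30899155-30922452), an aggrecan- and versican-cleaving enzyme, the same line was lowest: 16.9, 14.0 and 45.9 CPM in the WT lines, 20.96 and 38.1 CPM in KO lines 33 and 41 and 0.350 CPM in KO line 72. The other 5 lines had 1128 to 4546 counts of Adamts15, and KO line 72 had 27; a line under 1 part in 3 of the next lowest was seen for KO line 72 in this member and in 1.37% of all genes. Its neighbour Adamts8, 20.1 kb away, had few counts in all lines.

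**Figure D4:**
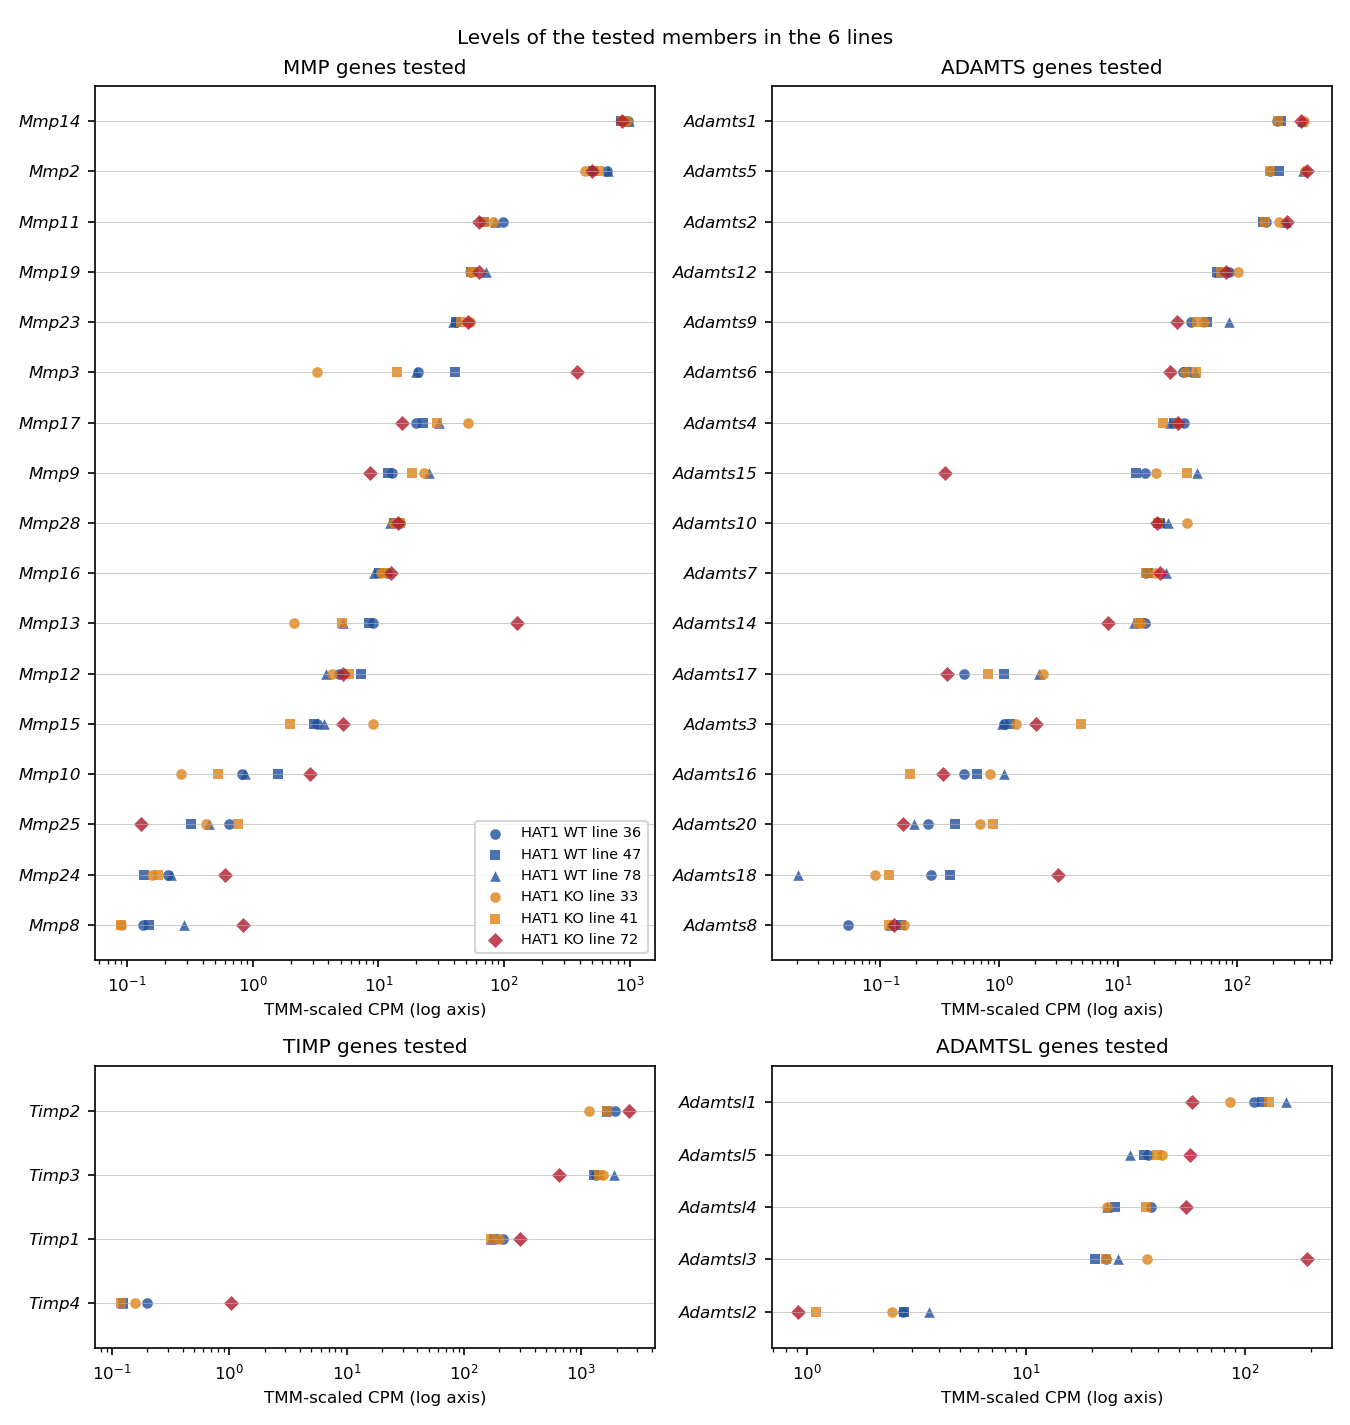
TMM-scaled CPM on a log axis of the 43 tested members, in 1 panel per class, each point 1 line; levels are not divided by gene length. KO line 72 lies far above the other lines for Mmp3 (382 CPM) and Mmp13 (128 CPM) and far below them for Adamts15 (0.350 CPM), while the KO lines of Mmp23 sit together above its WT lines.

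The main aggrecan- and versican-cleaving enzymes and the main procollagen N-proteinase split the lines in another way, across genotypes. Adamts1 (chr16:85793827-85803113) was 218, 233 and 353 CPM in WT lines 36, 47 and 78 and 363, 220 and 347 CPM in KO lines 33, 41 and 72. Adamts5 (chr16:85856173-85901828), 53.1 kb away on the same chromosome, was 189, 227 and 357 CPM in the WT lines and 375, 188 and 384 CPM in the KO lines. In both genes WT line 78 and KO lines 33 and 72 were high and WT lines 36 and 47 and KO line 41 were low. Adamts2 (chr11:50602084-50807573), which removes the amino-terminal propeptide of fibrillar procollagens, was 174, 164 and 256 CPM in the WT lines and 226, 172 and 264 CPM in the KO lines, with the same 3 lines high. The log2 fold changes were 0.21 (SE 0.26) for Adamts1, 0.29 (SE 0.34) for Adamts5 and 0.16 (SE 0.22) for Adamts2, none of them under an unadjusted p of 0.05. The lanes of the high lines were 7, 6 and 6 and those of the low lines 8, 6 and 7. Both lines with Y-linked transcripts were among the 3 low lines. With Y-linked CPM in the model the log2 fold changes were -0.19 (SE 0.29) for Adamts1, -0.20 (SE 0.41) for Adamts5 and -0.21 (SE 0.24) for Adamts2. The direction of all 3 turned, and again none was under an unadjusted p of 0.05. That fit set the KO lines mostly against WT line 78, which was among the high lines, so the turn rested largely on that line.

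The other aggrecan- and versican-cleaving enzymes did not share this split. Adamts4 was 23.7 to 35.8 CPM over the 6 lines. Adamts9 was 40.96, 55.8 and 85.1 CPM in the WT lines and 52.6, 46.1 and 31.4 CPM in the KO lines, which overlapped (log2 fold change -0.48, SE 0.31, unadjusted p = 0.162). With Y-linked CPM in the model its log2 fold change was -1.01 (SE 0.29, unadjusted p = 0.0181, adjusted p = 0.351). The counts of Adamts20 were 19, 34 and 19 in HAT1 WT and 61, 60 and 12 in KO lines 33, 41 and 72, so 2 KO lines were above and 1 below all WT lines. Its log2 fold change was 0.99 (unadjusted p = 0.185), and 1.45 (unadjusted p = 0.0162) without KO line 72. Of the enzymes that cut cartilage oligomeric matrix protein, Adamts12 was 67.3 to 101.5 CPM and Adamts7 17.1 to 25.4 CPM, with overlapping genotypes. Adamts14, the remaining procollagen N-proteinase, was 13.7 to 16.9 CPM in 5 lines and 8.13 CPM in KO line 72. Adamts6 and Adamts10, which act on fibrillin microfibrils and cell adhesion, lay between 27.3 and 45.4 CPM and between 21.4 and 37.6 CPM.

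Adamtsl1, or punctin-1, was 109 to 153 CPM in the WT lines and 84.9, 128 and 57.1 CPM in KO lines 33, 41 and 72 (log2 fold change -0.50, SE 0.30, unadjusted p = 0.14). Adamtsl4, which supports fibrillin microfibrils in the eye, was 23.3 to 37.2 CPM in the WT lines and 23.5, 35.2 and 53.7 CPM in the KO lines. The remaining tested members, Adamts8, Adamts16 and Adamts17, had at most 2.35 CPM in any line. Adamts13, Mmp1b, Mmp21 and Mmp27 were not tested, with at most 38 counts in any line. None of the 3 tested members was under an unadjusted p of 0.05 with all 6 lines, and without KO line 33 Adamts16 had a log2 fold change of -1.53 (unadjusted p = 0.0315, adjusted p = 0.361). Exons of 12 members, Timp3, Timp4, Mmp11, Mmp12 and Mmp19 among them, share bases with another annotated gene; the use of strand in the counting was not stated, so reads of the shared bases cannot be assigned to 1 gene.

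The proteins around these enzymes were read from a list of activators, other inhibitors, receptors and membrane sheddases, of which 34 of 36 genes were in the table and all 34 were tested. At an unadjusted p under 0.05, 8 were lower and 2 higher in HAT1 KO (8.77% and 5.88% of all genes), with 0 past the adjusted threshold by edgeR; the list's median log2 fold change was -0.09. Adam8, a sheddase made mostly by leukocytes, was 235.8, 277.7 and 294.1 CPM in the WT lines and 128.5, 176.4 and 172.8 CPM in the KO lines, and it fell by 0.76 on the log2 scale (SE 0.15, unadjusted p = 0.002). The macrophage markers were lower in the same lines, and their part in this was not tested. Thbs2, which binds MMP2 for uptake by cells, fell by 0.65 (SE 0.15, unadjusted p = 0.00451) and its uptake receptor Lrp1 by 0.37 (SE 0.10, unadjusted p = 0.0109). Adam17, the sheddase inhibited by TIMP3, fell by 0.47 (SE 0.12, unadjusted p = 0.00803). Ctsb, a lysosomal protease that can activate MMP precursors, fell by 0.71 (SE 0.18, unadjusted p = 0.00769), and Itgav, Plat and A2m were also lower.

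Pcolce2, which codes for an enhancer of procollagen C-proteinase, was 6.10 to 7.12 CPM in the WT lines, 9.64 and 8.33 CPM in KO lines 33 and 41 and 43.02 CPM in KO line 72. It and Cav1 were the 2 genes of the list that were higher, by 1.65 (SE 0.65) and 0.65 (SE 0.21) on the log2 scale. Furin and Plau, the activators with the most direct roles, had log2 fold changes of 0.04 and 0.08, and Reck, a membrane-anchored MMP inhibitor, had -0.28 (unadjusted p = 0.113).

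Of the matrix proteins that these enzymes cut or bind, 23 of 24 listed genes were tested; 2 were lower at an unadjusted p under 0.05 (8.77% of all genes) and 0 higher (5.88%), a count no larger than the background gives. Tnc (tenascin-C) was 5154, 5299 and 5858 CPM in the WT lines and 2995, 4023 and 2102 CPM in the KO lines. All KO lines were below all WT lines, and Tnc fell by 0.84 on the log2 scale (SE 0.24, unadjusted p = 0.011, adjusted p = 0.205). Col4a1, a basement membrane collagen, fell by 0.39 (SE 0.15, unadjusted p = 0.0409). KO line 72 stood apart here too: Eln (elastin) was 4.02 CPM in it and 110.1 to 781.3 CPM in the other lines, Acan (aggrecan) was 0.259 CPM in it and 1.96 to 25.8 CPM elsewhere, and Comp was 8.30 CPM in it and 0.340 to 1.72 CPM elsewhere. Acan is also 1 of 6 listed chondrocyte markers, which summed to 96.6, 152.5 and 18.8 CPM in WT lines 36, 47 and 78. In KO lines 33, 41 and 72 they summed to 66.0, 49.5 and 13.6 CPM, and their part in the Acan values was not tested. The median log2 fold change of the 23 matrix genes was -0.05.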

How the data were processed

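RNA-seq of 6 primary MEF lines (3 HAT1 WT, 3 HAT1 KO, grouped by the genotype in the labels) was used. The authors deposited raw read counts per gene without normalization, together with columns of their own comparison (a log2 fold change, a log2 mean CPM, an F score, a p-value and a q-value), which were not used. The submitters' processing notes name edgeR and the build mm10; the aligner, the counter and the use of strand are not given in the sources used here. Even numbers made up 75.1% of the counts between 1 and 10 but 55.0% of those between 101 and 1000, and low counts may hold a pair as 2 reads. Total counts lay between 67720628 and 98786746 per library, and above low counts the spread between lines (common dispersion 0.0747) sets the precision.

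The quasi-likelihood test of edgeR 4.0.16 (R 4.3.3) was run on the counts (filterByExpr, TMM scaling, glmQLFit and glmQLFTest with genotype alone, two-sided) on all 14773 genes that passed the filter, with Benjamini-Hochberg adjustment over them. The SE, an approximation, was taken as the log2 fold change over the root of F. The exact permutation test of 3 against 3 lines cannot give p under 0.1. Positions and merged exon lengths are from GENCODE M21 (GRCm38), promoter windows from RefSeq (GRCm38.p6). The alternatives were DESeq2 1.42.0 (its size factors and its Wald test), voom with quality weights (limma 3.58.1), library size alone, no filter, a mean of at least 50 counts, a 2-fold threshold, lane or Y-linked CPM in the model, and leaving out each line.

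The members, the gene lists and the rule for named genes were chosen with earlier results of these data known. Every member could be named. Values per line are given for members under an unadjusted p of 0.05, the 12 most abundant per kb and the TIMPs. They are also given for tested members whose lines did not overlap and for members with 1 line over 3 times the next. A line is said to stand apart only at 20 counts or more. Adamts20, Mmp8, Mmp10, Mmp12, Mmp1b, Mmp9, Mmp15, Mmp17, Adamts9 and Adamtsl1 were given per line after their values were seen. The values of 1 gene of the comparison lists are not reported here.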

Additional observations from a re-analysis of the deposited data

How the results depend on the processing

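The count of members past the adjusted threshold was 0 under every alternative but the DESeq2 Wald test, which called 1 (Mmp23, adjusted p = 0.0439) and gave no p for Mmp3, Mmp13 and Adamts18. The 1 member lower at 1.5-fold became 0 with lane in the model and 0 to 2 when a line was left out. The 1 member higher at 1.5-fold became 0 with voom, 0 with lane in the model, 2 without a filter, and 0 to 3 when a line was left out. With Y-linked CPM in the model both counts were 1, but of other members: Adamts9 (-1.01) was lower and Adamtsl5 (0.63) higher, and Adamtsl2 and Adamts3 lost the call. Without KO line 72 the lower members were Mmp3 and Mmp10, at log2 fold changes of -1.65 and -1.44 in place of 2.30 and 0.18 (highest without KO line 33, at 2.87 and 0.65), and the higher ones were Adamts3, Adamts20 and Mmp17. The shares of all genes called in these alternative analyses are not given here, so the counts of members have no background beside them. The median log2 fold change of members was 0.048 with voom and -0.0059 to 0.31 when a line was left out, lowest without KO line 72. The 10 listed partner genes became 5 with lane in the model. The 2 matrix genes became 1 with voom, 1 with lane, 5 with Y-linked CPM in the model and 1 to 3 when a line was left out. Hat1 kept its direction, with log2 fold changes of -1.10 with lane in the model (adjusted p = 0.529), -1.01 with Y-linked CPM (0.257) and -1.08 to -0.87 without a line, and its adjusted p was above 0.05 in each of these. For fewer lines or an added covariate, fewer residual degrees of freedom are left; beyond that, the cause was not tested. Of the values of single members, 506 kept direction and side of an unadjusted p of 0.05, and 58 changed sign without being under it in either analysis. Another 15 lost it and 12 gained it. The last 2, Mmp3 and Mmp10 without KO line 72, changed sign and were under it only in that fit. With voom, 11 of the 43 members had the other sign, among them Mmp3 (-1.23), Mmp10 (-1.12), Mmp13 (-0.57) and Mmp8 (-0.36); without KO line 72, 14 did. No paired analysis was possible because the genotypes share no replicate numbers. Depth limits members with few counts (Timp4, Mmp8, Adamts18), where KO line 72 sets the mean.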

Other observations

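Thsd4 and Papln, which code for proteins related to the ADAMTS-like family under other symbols, were looked up after the values of the members had been seen. Thsd4 had 1118, 895 and 1979 counts in WT lines 36, 47 and 78 and 785, 2609 and 341 counts in KO lines 33, 41 and 72, which is 8.81, 38.6 and 4.42 CPM in the KO lines. KO line 41 was its highest line and KO line 72 its lowest, so the KO lines lay on both sides of the WT lines (log2 fold change 0.17, SE 0.77, adjusted p = 0.937). Papln had 8 to 81 counts per line, with the highest count in KO line 33 and the lowest in KO line 72.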
